A study of Heterocephalus glaber with 3 samples.

Results

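The genes described here encode the proteasome: the subunits of its barrel-shaped core, of the regulatory cap that feeds it, the factors that assemble both, and its alternative activators and inhibitor. They were chosen by symbol alone, as every symbol beginning with PSMA, PSMB, PSMC, PSMD, PSME, PSMF or PSMG plus a number, or POMP, leaving out the immunoproteasome subunits PSMB8, PSMB9 and PSMB10. Of 23189 annotated features, 32 met this rule, 4 of 8 listed alpha ring genes, 7 of 8 beta ring genes, 5 of 6 ATPases of the cap's base, 8 of 11 non-ATPase subunits of the base and lid, 4 of 8 assembly factors and 4 of 5 activators and inhibitors. POMP, PSME4, PSMA2, PSMA3, PSMA6, PSMA7, PSMB3, PSMC5, PSMD3, PSMD5, PSMD7, PSMD14, PSMG2 and PSMG4 carried no matching symbol and were not analysed here.

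The proteasome is the main protease of the cytosol and nucleus and degrades proteins tagged with ubiquitin. A ring of ATPases in the base unfolds the substrate, the lid removes its ubiquitin, and 3 of the beta subunits cut it: PSMB5 with chymotrypsin-like, PSMB6 with caspase-like and PSMB7 with trypsin-like specificity. Interferon induces PSMB8, PSMB9 and PSMB10, which replace these in the immunoproteasome, and it also induces PSME1 and PSME2, which form an alternative activator cap. Both changes favour peptides that are loaded on MHC class I. The transcription factor NFE2L1 raises the constitutive subunits together when proteasome activity falls short, and cells that secrete or divide heavily are known to depend on the complex.

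Lung tumours came from 3 naked mole-rats (Heterocephalus glaber), a long-lived rodent, 15 weeks after infection with a CRISPR-carrying adenovirus whose intended edits include an Eml4-alk inversion and the loss of Rb. The tumours were cut from the surrounding lung by hand, dissociated and sequenced as single cells with the 10x Genomics 3' kit, which counts unique molecular identifiers (UMIs), 1 library per animal. All 3 animals form a single group, called replicates 1 to 3, with no untreated animal, so the comparisons run between cell classes within the same animals and not between tumour and normal lung. The labels give neither the sex nor the age of the animals.

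The libraries held 9500, 10000 and 10000 barcodes with 76093932, 86575320 and 91949365 UMIs, of which 7929, 8891 and 7779 cells were kept. Pairs of libraries shared 21 to 31 barcode sequences, none with an equal UMI total. Clusters were made without the proteasome and pathway genes and were named by marker genes, 140 of 197 of which carried a symbol. This gave 11 cell classes with at least 20 cells in at least 2 animals: dendritic-like, monocyte and macrophage-like, neutrophil-like, T and NK-like, B-like, plasma-like, mesenchymal-like, bone matrix-like, mesothelial-like, endothelial-like and epithelial-like cells. Counts were summed per class and animal into 32 libraries, from 21 bone matrix-like cells in replicate 1 to 2369 monocyte and macrophage-like cells in replicate 2. The bone matrix-like class was mostly replicate 2, with 21, 226 and 34 cells, and the mesothelial-like class had enough cells in replicates 2 and 3 only. The name of the bone matrix-like class was borne out by its markers in replicate 2 only. Its 7 markers measured summed to 203, 3225 and 94.4 CPM (UMIs per 1000000 UMIs of the library) in replicates 1, 2 and 3, and 5, 0 and 5 of the 7 stood at 0. Basal cell markers summed to 92.2, 183 and 2217 CPM in the same libraries and the 13 macrophage markers to 9564, 5913 and 24048. The macrophage marker APOE alone made up 93.7, 86.0 and 97.7% of the last sums, with the marker C1QB at 15.4, 64.2 and 15.2 CPM. Results of the bone matrix-like class are therefore also given with the libraries of replicates 1 and 3 left out, where the lone library is assumed to vary like those of the other classes. Median depth differed between classes, from 1375 to 2925 UMIs per cell in neutrophil-like cells and 1720 to 2777.5 in B-like cells up to 17054.5 to 24996 in bone matrix-like cells. Marker sums from other classes were not empty. The 6 plasma markers measured summed to 16937 to 26228 CPM in B-like cells, against 323919 to 426920 in plasma-like cells, and reached 39962 in the endothelial-like library of replicate 3 and 37105 in the mesothelial-like library of replicate 2. The macrophage markers summed higher in mesenchymal-like cells, at 13273 to 16990 CPM, than in the macrophage class itself, at 6919 to 8895. APOE made up 93.8 to 96.4% of that sum in mesenchymal-like cells, where C1QB stood at 19.9 to 73.6 CPM against 898 to 1831 in macrophages. The part of such transcripts in the results was not tested.

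All 32 genes together took a share of the transcriptome that differed by class. Their summed level was highest in dendritic-like cells, at 5893, 6043 and 4710 CPM in replicates 1, 2 and 3, or 5549 ± 730 (SD, n = 3). Mesenchymal-like cells followed at 5004 ± 380 (SD, n = 3), bone matrix-like cells at 4877 ± 499 (SD, n = 3), endothelial-like cells at 4446 ± 132 (SD, n = 3) and monocyte and macrophage-like cells at 4395 ± 175 (SD, n = 3). The bone matrix-like library of replicate 2 alone held 4372 CPM. These neighbours overlapped, and the dendritic-like library of replicate 3 lay below the mesenchymal-like and bone matrix-like libraries of replicate 1. Mesenchymal-like cells outside a cluster led by IGF2 and MMP3, described below, held 3647 ± 193 CPM (SD, n = 3). T and NK-like cells held 4228 ± 304, epithelial-like cells 4009 ± 256, mesothelial-like cells 3669 ± 387 (SD, n = 2) and B-like cells 3567 ± 363 CPM. Neutrophil-like cells, short-lived phagocytes with small RNA content, held 3019, 3045 and 2893 CPM and overlapped no class above them.

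Plasma-like cells, which secrete antibody, had the lowest sum, at 1480, 1744 and 1049 CPM, and overlapped no other class. In the same libraries the 10 most abundant features took 68.6, 63.8 and 74.9% of all UMIs. Counted per 1000000 UMIs outside each library's 10 leading features, the members summed to 4570 ± 338 (SD, n = 3) in plasma-like cells, within the range of the other classes, which ran from 4116 ± 149 in neutrophil-like cells to 6383 ± 803 in dendritic-like cells (both SD, n = 3). The low plasma sum was therefore a statement about the share of all RNA and depended on the denominator.

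**Figure D1:**
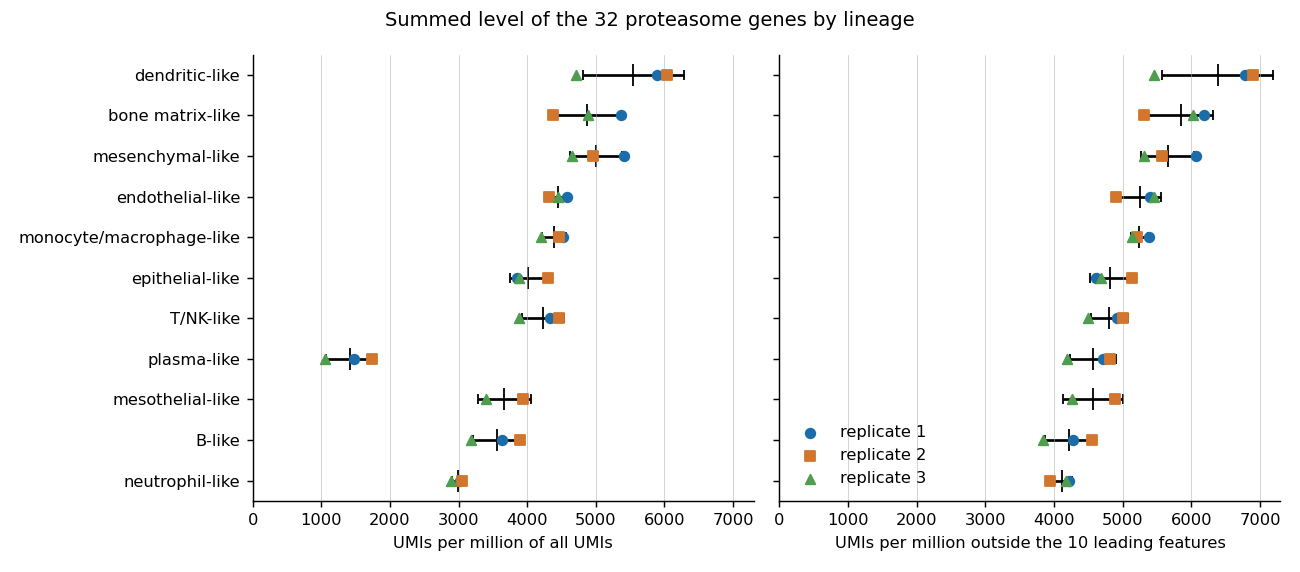
Summed level of the 32 proteasome genes in each cell class, in CPM of all UMIs (left) and per 1000000 UMIs outside each library's 10 most abundant features (right). Points are animals, ticks are means and bars are SD. On the left plasma-like cells sit alone at 1049 to 1744, and on the right they fall among the other classes at a mean of 4570.

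Differences of single genes were therefore measured after scaling the summed libraries by trimmed mean of M-values (TMM), which takes most genes as equal, and each class was compared with the equally weighted mean of the others. A gene counted as higher or lower where its edgeR adjusted p over 12942 genes tested was under 0.05. PSMA8, a testis form of an alpha subunit with 4 UMIs in all, and PSMB11, the thymus-specific beta subunit with 1 UMI, failed the filter on low counts, which left 30 of the 32 members. All 30 differed between at least some of the classes, against a background of 93.1% of all genes tested, so a difference somewhere was no property of the proteasome genes. The smallest F value belonged to PSMF1 (2.42, edgeR adjusted p = 0.0349) and the largest to PSME1 (41.8), PSMG3 (38.8) and PSMB7 (35.6). Without the animal as a block, 22 of the 30 differed, as did 11183 of 12942 genes tested. With the block, the level an animal shares across its classes is removed. The p-values then rest on how differences between classes vary from animal to animal, pooled over all classes. The cell classes were drawn from the same counts, although without these genes, so the p-values are not calibrated for the choice of clusters.

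The scaling bore on every count of higher and lower genes. With library totals in place of TMM, the median difference of all genes moved from -0.02 to -1.75 (log2) in plasma-like cells and from 0.06 to -1.65 in plasma-like against B-like cells. The same change moved it from -0.10 to 0.43 in endothelial-like, -0.01 to 0.33 in epithelial-like, 0.03 to 0.31 in bone matrix-like, 0.10 to 0.35 in mesenchymal-like, 0.02 to 0.27 in T and NK-like, -0.11 to 0.05 in B-like, -0.01 to 0.15 in dendritic-like and -0.21 to -0.43 in neutrophil-like cells. The distance between the members' median and the median of all genes is given beside the counts below. A change of scaling shifts all genes of a comparison by nearly the same amount. This distance therefore hardly moves with the scaling and is no test of it. Calls over all genes changed under the alternatives as well, so a count of members under an alternative has another background than the main fit.

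**Figure D2:**
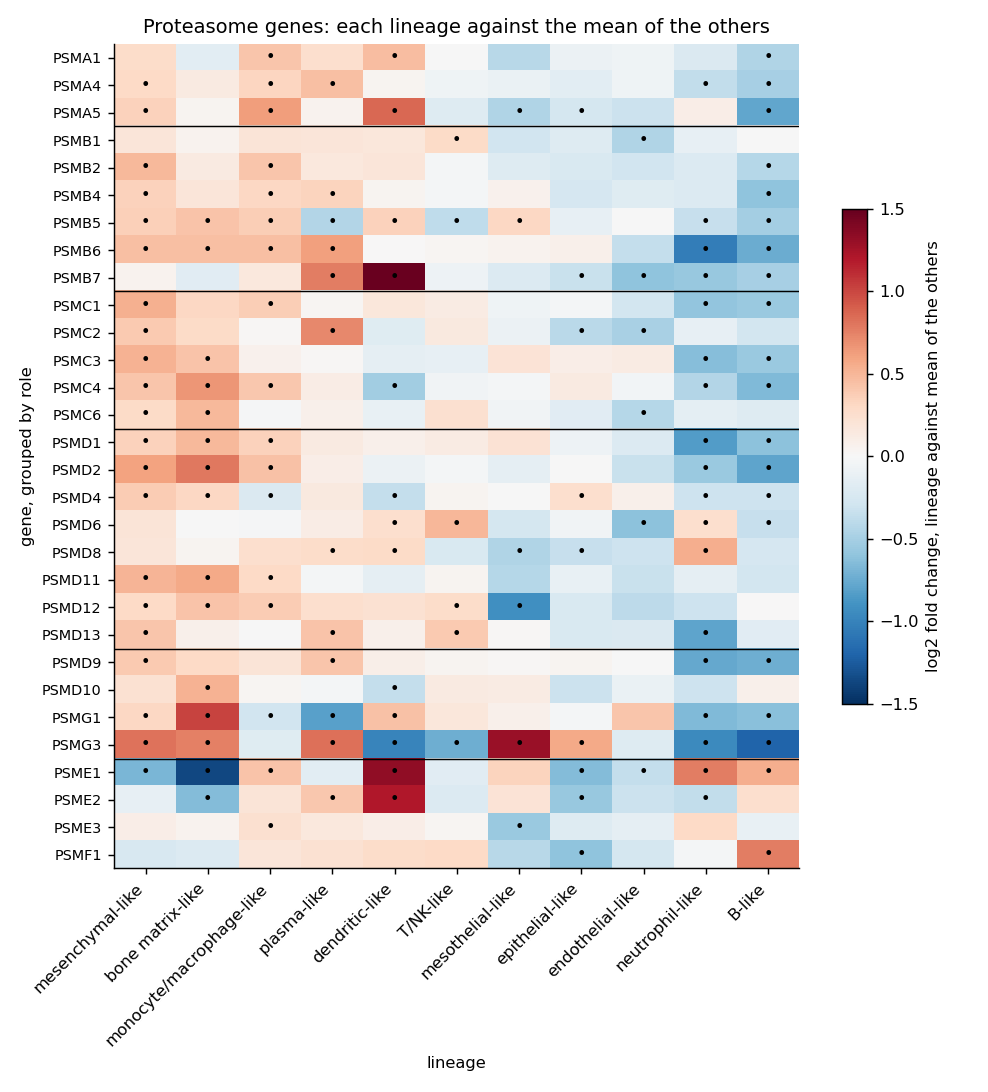
Log2 difference of each proteasome gene between a cell class and the mean of the other classes on the TMM scale, genes in rows ordered by role and classes in columns, with dots where the edgeR adjusted p was under 0.05. PSMB7, PSME1 and PSME2 stand out in dendritic-like cells and PSMG3 is higher in 5 classes and lower in 4. With library totals the plasma-like column turns to lower for all 30 genes tested and calls in the endothelial-like and epithelial-like columns turn from mostly lower to mostly higher.

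Among the catalytic subunits, PSMB7 was the one that set a class apart. It stood at 548, 491 and 488 TMM-scaled CPM in dendritic-like cells of replicates 1, 2 and 3. Plasma-like cells came next at 394, 268 and 324, and the other 9 classes ranged from 109 to 253. No library outside the dendritic-like class reached its lowest value, and the log2 difference was 1.48 ± 0.09 (SE, edgeR adjusted p = 1.2e-13, higher in 3 of 3 animals). This difference stayed past the threshold under every alternative run. PSMB7 was lower in B-like cells (-0.50 ± 0.12, edgeR adjusted p = 0.0017), neutrophil-like cells (-0.56 ± 0.12, edgeR adjusted p = 0.00035) and endothelial-like cells (-0.60 ± 0.12, edgeR adjusted p = 0.0004), but with library totals the B-like difference was -0.33 and the endothelial-like one -0.08, neither past the threshold. With every cell thinned to 1000 UMIs the endothelial-like difference was -0.59 and no longer passed.

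Within the dendritic-like class the PSMB7 level was uneven. The cluster led by CLEC9A, a receptor of the conventional dendritic cells that cross-present antigen, and not by division genes held 763, 674 and 729 CPM of all UMIs. The dividing dendritic-like cluster, also led by CLEC9A, held 593 and 493 in replicates 1 and 2, the animals with at least 20 such cells. The cluster marked by CCL17, a chemokine of mature dendritic cells, held 187, 162 and 252, a range shared with macrophage-like and T-like clusters. PSMB7 was thus high in 2 of 3 dendritic-like clusters and not across the class. PSME1 was also higher in the first CLEC9A cluster than in the CCL17 cluster in each animal, at 1158, 1427 and 879 CPM against 781, 1044 and 511. The dividing cluster held 795 and 936 in replicates 1 and 2, closer to the CCL17 cluster of the same animals, so PSME1 split the 3 clusters otherwise than PSMB7.

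**Figure D3:**
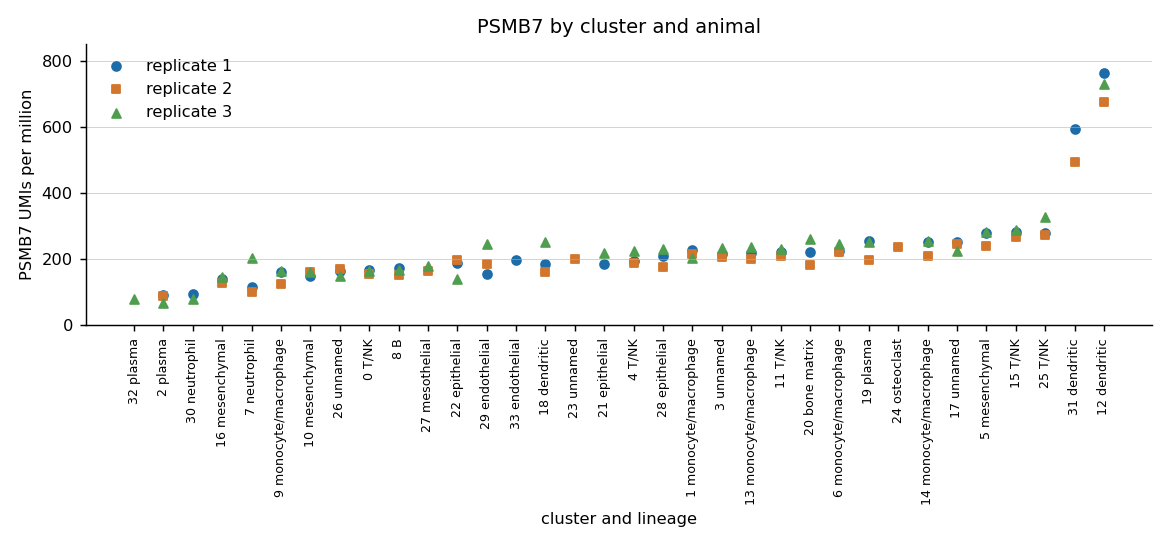
PSMB7 level in each of the 34 clusters, in CPM of all UMIs, one point per animal with at least 20 cells, clusters ordered by mean. The CLEC9A dendritic-like cluster (674 to 763) and the dividing dendritic-like cluster (493 and 593) lie above all other clusters, while the CCL17 dendritic-like cluster (162 to 252) lies among them.

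PSMB5 varied less but in more classes. It was higher in bone matrix-like (0.43 ± 0.09), monocyte and macrophage-like (0.37 ± 0.09), mesenchymal-like (0.36 ± 0.09), dendritic-like (0.35 ± 0.09) and mesothelial-like cells (0.31 ± 0.11), with edgeR adjusted p from 0.00027 to 0.036. It was lower in B-like (-0.52 ± 0.10), plasma-like (-0.44 ± 0.09), T and NK-like (-0.38 ± 0.09) and neutrophil-like cells (-0.35 ± 0.10), with edgeR adjusted p from 0.00015 to 0.0044. Its values ran from 372 to 567 TMM-scaled CPM in bone matrix-like cells and from 242 to 273 in B-like cells, which did not overlap. Calls for PSMB5 were fragile where 1 animal was left out: without replicate 1 it was 0.29 in mesenchymal-like, 0.35 in dendritic-like, 0.31 in mesothelial-like, -0.37 in T and NK-like and -0.31 in neutrophil-like cells, none past the threshold. The same held for dendritic-like cells without replicate 2 (0.31), and for mesothelial-like (0.16) and neutrophil-like cells (-0.29) without replicate 3. With every cell thinned to 1000 UMIs only the monocyte and macrophage-like and mesenchymal-like calls remained, and PSMB5 was 0.38 in dendritic-like, 0.019 in bone matrix-like, -0.10 in mesothelial-like, -0.36 in B-like, -0.29 in plasma-like, -0.20 in T and NK-like and -0.14 in neutrophil-like cells. Without the animal block only the B-like and bone matrix-like calls remained, and with library totals the T and NK-like (-0.14) and mesothelial-like (0.28) calls were lost. In bone matrix-like cells of replicate 2 alone PSMB5 was 0.36 (edgeR adjusted p = 0.068).

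PSMB6 was lowest in neutrophil-like cells, at 72.9, 38.9 and 59.0 TMM-scaled CPM, and B-like cells at 62.8, 75.9 and 58.7 overlapped them. Plasma-like cells held 189, 148 and 145, mesenchymal-like cells 178, 126 and 131 and monocyte and macrophage-like cells 149, 116 and 167. The log2 difference was -1.04 ± 0.17 in neutrophil-like cells (SE, edgeR adjusted p = 8.6e-06), past the threshold under every alternative run, and -0.74 ± 0.16 in B-like cells (edgeR adjusted p = 0.00072, but -0.60 and past the threshold no longer without replicate 1). In plasma-like cells PSMB6 was 0.61 ± 0.12 higher (edgeR adjusted p = 0.00018) and PSMB7 0.77 ± 0.10 higher (edgeR adjusted p = 2.3e-07) while PSMB5 was lower, so the 3 catalytic subunits did not move as one there. With library totals all 3 were lower in plasma-like cells.

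Of the structural ring subunits, PSMA5, an alpha ring subunit, showed the widest spread. It stood at 169, 125 and 115 TMM-scaled CPM in dendritic-like cells and 150, 112 and 91.9 in monocyte and macrophage-like cells, against 53.7, 51.0 and 37.7 in B-like cells. The B-like range lay below both myeloid ranges. The log2 difference was 0.86 ± 0.09 in dendritic-like cells (edgeR adjusted p = 9.8e-09), 0.62 ± 0.09 in monocyte and macrophage-like cells (edgeR adjusted p = 1.3e-06) and -0.78 ± 0.13 in B-like cells (edgeR adjusted p = 2e-05). PSMB1 was the flattest ring subunit by calls, higher in T and NK-like cells and lower in endothelial-like cells only, with log2 differences from -0.45 to 0.29 over the 11 classes.

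More base and lid genes were higher than lower in mesenchymal-like and bone matrix-like cells, and more were lower than higher in B-like and neutrophil-like cells. Of the 5 ATPases, 5 and 3 were higher in the first pair, and 3 and 3 lower in the second. Of the 8 non-ATPases, 6 and 5 were higher in the first pair, and 4 and 4 lower in the second, with 2 higher in neutrophil-like cells. Among all genes tested 30.6% and 23.4% were higher in the first pair and 16.3% and 19.7% lower in the second, with 20.6% higher in neutrophil-like cells. PSMD2, a scaffold subunit of the base that docks ubiquitin receptors, stood at 158, 186 and 204 TMM-scaled CPM in bone matrix-like cells and 150, 154 and 179 in mesenchymal-like cells. B-like cells held 64.6, 78.7 and 41.9 and did not overlap either class. The log2 difference was 0.79 ± 0.13 in bone matrix-like cells (edgeR adjusted p = 2.3e-05; 0.72 in replicate 2 alone, edgeR adjusted p = 0.0099), 0.61 ± 0.13 in mesenchymal-like cells (edgeR adjusted p = 0.0002) and -0.79 ± 0.17 in B-like cells (edgeR adjusted p = 0.00049). PSMD1, the other large scaffold subunit, was lowest in neutrophil-like cells at 52.9, 37.9 and 52.9 (-0.84 ± 0.14, edgeR adjusted p = 1.2e-05), where the lid subunit PSMD13 was also lower (-0.79 ± 0.13, edgeR adjusted p = 1.3e-05).

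Single cap subunits had other orders. PSMD6, a lid subunit, was highest in T and NK-like cells at 167, 154 and 154 TMM-scaled CPM, although neutrophil-like cells at 161, 111 and 140.5 overlapped them (log2 difference in T and NK-like cells 0.50 ± 0.09, edgeR adjusted p = 2.9e-05). PSMD8, another lid subunit, was higher in neutrophil-like cells (0.54 ± 0.11, edgeR adjusted p = 0.00032) beside the 4 cap subunits of that group that were lower. The ATPase PSMC2 was highest on average in plasma-like cells, at 194, 147 and 171, with mesenchymal-like and bone matrix-like libraries of up to 155 overlapping them (0.72 ± 0.10, edgeR adjusted p = 1.6e-06). It was lower in endothelial-like cells (-0.48 ± 0.14, edgeR adjusted p = 0.01), but -0.44 without replicate 1 and -0.40 without replicate 2, neither past the threshold, and 0.046 with library totals. Library totals also made PSMC2 lower in plasma-like cells. The lid subunit PSMD12 was lower in mesothelial-like cells, at 24.5 and 33.8 in replicates 2 and 3 (-0.92 ± 0.19, edgeR adjusted p = 0.00059, but -0.77 and past the threshold no longer without replicate 3), and epithelial-like and endothelial-like cells overlapped them.

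The assembly factor PSMG3, which pairs with PSMG4 to place alpha subunits as the ring is built, split the classes in 2 bands. Mesothelial-like cells held 104 and 89.9 TMM-scaled CPM. Plasma-like cells held 78.6, 61.3 and 73.8, mesenchymal-like cells 71.4, 67.7 and 73.0, bone matrix-like cells 64.9, 62.2 and 81.5 and epithelial-like cells 57.0, 61.1 and 64.0. T and NK-like, neutrophil-like, dendritic-like and B-like cells lay between 12.6 and 29.6, with endothelial-like and monocyte and macrophage-like cells between the bands at 31.3 to 42.5. The bands did not overlap, and the lowest epithelial-like library held more than the highest endothelial-like one.

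PSMG3 was accordingly higher in 5 classes and lower in 4. The log2 difference was 1.29 ± 0.15 in mesothelial-like (edgeR adjusted p = 6e-08), 0.83 ± 0.11 in plasma-like (2.7e-07), 0.81 ± 0.10 in mesenchymal-like (9.8e-08), 0.75 ± 0.12 in bone matrix-like (1.3e-05) and 0.57 ± 0.11 in epithelial-like cells (0.00014), each p from the same edgeR fit. It was -1.20 ± 0.17 in B-like (2.4e-06), -0.98 ± 0.13 in dendritic-like (5.2e-07), -0.96 ± 0.17 in neutrophil-like (2.5e-05) and -0.73 ± 0.12 in T and NK-like cells (8.6e-06). In bone matrix-like cells of replicate 2 alone it was 0.62 (edgeR adjusted p = 0.0063). With every cell thinned to 1000 UMIs the direction held in all 9, but the mesothelial-like difference dropped to 0.32 and that class, B-like, T and NK-like, neutrophil-like and epithelial-like cells no longer passed the threshold. The plasma-like difference was -0.93 with library totals.

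PSMG1, which acts with PSMG2 at the first step of alpha ring assembly, had another order. It was highest in bone matrix-like cells at 70.1, 50.7 and 69.4 TMM-scaled CPM (1.01 ± 0.12, edgeR adjusted p = 1.5e-07), which the endothelial-like library of replicate 1 overlapped at 65.1. In replicate 2 alone the bone matrix-like difference was 0.96 (edgeR adjusted p = 0.00013). It was lowest in plasma-like cells at 23.3, 14.7 and 21.6 (-0.81 ± 0.13, edgeR adjusted p = 1.2e-05), overlapping B-like cells at 27.3, 19.4 and 16.8. The 2 alpha ring chaperones therefore moved in opposite directions in plasma-like cells on the TMM scale and in dendritic-like cells, where PSMG1 was 0.44 ± 0.12 higher (edgeR adjusted p = 0.0037). The base chaperone PSMD9 was lower in neutrophil-like (-0.76 ± 0.22, edgeR adjusted p = 0.0055) and B-like cells (-0.73 ± 0.21, edgeR adjusted p = 0.0081).

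The activator subunit PSME1 had the widest range of all members between classes. Dendritic-like cells held 914, 1090 and 688 TMM-scaled CPM, neutrophil-like cells 663, 902 and 383, B-like cells 581, 688 and 386 and monocyte and macrophage-like cells 578, 675 and 316. Mesenchymal-like cells held 264, 346 and 164, epithelial-like cells 229, 369 and 188 and bone matrix-like cells 162, 217 and 118. Within each animal every one of the 4 high classes exceeded every one of the 3 low classes, although across animals the ranges of some overlapped.

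The PSME1 log2 difference was 1.33 ± 0.10 in dendritic-like (edgeR adjusted p = 4.1e-12), 0.76 ± 0.11 in neutrophil-like (9.2e-07), 0.54 ± 0.11 in B-like (0.00033) and 0.43 ± 0.11 in monocyte and macrophage-like cells (0.0014). It was -1.37 ± 0.13 in bone matrix-like (1.3e-09), -0.69 ± 0.12 in mesenchymal-like (1.5e-05), -0.65 ± 0.12 in epithelial-like (4.1e-05) and -0.35 ± 0.12 in endothelial-like cells (0.029), all from the same edgeR fit. The dendritic-like, neutrophil-like and bone matrix-like differences passed under every alternative, the last at -1.31 in replicate 2 alone, while the endothelial-like one was lost under 11 alternatives and was 0.17 with library totals. Without replicate 1 the monocyte and macrophage-like difference was 0.35 and the endothelial-like one -0.47, and without replicates 2 and 3 the latter was -0.31 and -0.24, none past the threshold. Without the animal block the B-like, monocyte and macrophage-like, mesenchymal-like and epithelial-like differences did not pass either, at 0.55, 0.45, -0.67 and -0.65.

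Its partner PSME2 stood at 598, 629 and 443 in dendritic-like cells, above the 122 to 396 of all other libraries (1.20 ± 0.10, edgeR adjusted p = 3.8e-11). PSME2 was lower in bone matrix-like (-0.66 ± 0.12, edgeR adjusted p = 7.3e-05, and -0.51 in replicate 2 alone, edgeR adjusted p = 0.043), epithelial-like (-0.57 ± 0.12, edgeR adjusted p = 0.00018) and neutrophil-like cells (-0.37 ± 0.12, edgeR adjusted p = 0.013). In neutrophil-like cells the 2 partners thus went opposite ways, although PSME2 there was -0.43 without replicate 1 and -0.32 without replicate 2, neither past the threshold. PSME3, the nuclear activator that is not induced by interferon, moved little, from 0.24 ± 0.09 in monocyte and macrophage-like cells (edgeR adjusted p = 0.033) to -0.56 ± 0.17 in mesothelial-like cells (edgeR adjusted p = 0.028). Leaving out any 1 animal ended the call on the first PSME3 difference (0.22 to 0.25), and the mesothelial-like one was lost without replicate 2 (-0.41) and without replicate 3 (-0.80). The inhibitor PSMF1, with 4366 UMIs in all, was higher in B-like cells (0.77 ± 0.25, edgeR adjusted p = 0.016, but 0.54 and past the threshold no longer without replicate 2). It was lower in epithelial-like cells (-0.60 ± 0.24, edgeR adjusted p = 0.044), but not past the threshold without replicate 1 (-0.21) or replicate 3 (-0.43).

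By class, mesenchymal-like cells had the most members raised. A cluster led by IGF2 and MMP3, described below, gave 15703426 of 18214775, 5905879 of 8914410 and 9508079 of 12136353 UMIs of this class in replicates 1, 2 and 3. The other mesenchymal-like cells summed to 3727, 3787 and 3427 CPM and were not compared with the other classes. In the class as a whole 20 of 30 members were higher and 1 lower, against a background of 30.6% higher and 15.8% lower among all genes. The members' median difference of 0.35 lay 0.24 above the median of all genes (0.14 to 0.28 under the alternatives). All 5 ATPases, 6 of 8 non-ATPases, 4 of 6 beta subunits, 3 of 4 assembly factors and 2 of 3 alpha subunits were higher, and the 1 that was lower was PSME1. Without replicate 1 the count of higher members was 3, when 2906 of 12903 genes tested were higher. The members' median was then 0.30 and that of all genes 0.11. Bone matrix-like cells had 13 higher and 2 lower (background 23.4% and 16.4%), the 2 being PSME1 and PSME2, and the members' median lay 0.27 above that of all genes, but 0.078 above it without replicate 3. With the bone matrix-like libraries of replicates 1 and 3 left out, 6 were higher and 2 lower, and the median lay 0.077 above that of all genes. The 6 were PSMG1, PSMG3, PSMD2, PSMD9, PSMD10 and PSMC4. In the fit with all libraries no alpha subunit passed, but 3 ATPases, 5 non-ATPases and 3 assembly factors were higher. The bone matrix-like libraries were the deepest per cell. With cells thinned to 1000 UMIs 0 members were higher and 1 lower, against 720 and 517 of 9227 genes. The members' median then lay 0.20 above that of all genes, and the thinned libraries held 21000, 226000 and 34000 UMIs. Without replicate 1 the count of higher members was 8.

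Monocyte and macrophage-like cells had 15 higher and 2 lower (background 29.1% and 16.5%), with a median 0.20 above that of all genes (0.061 with cells thinned to 1000 UMIs). The higher ones included all 3 alpha and 4 of 6 beta subunits. The split was 4 higher and 3 lower with RLE size factors and 13 and 0 with library totals, and the higher count was 6 without replicate 1 and 8 without replicate 3. Dendritic-like cells had 9 higher and 4 lower (background 22.3% and 16.6%), or 12 and 1 with library totals, and the higher count was 4 without replicate 2. The members' median lay only 0.11 above that of all genes, so the high sum of this class came with a few large differences rather than many: PSMB7, PSME1, PSME2 and PSMA5 were each above 0.8, and no other higher member exceeded 0.46. PSMG3 (given above), PSMC4 (-0.52 ± 0.13, edgeR adjusted p = 0.0015), PSMD4 and PSMD10 were lower. Neutrophil-like cells had 3 higher and 15 lower (background 20.6% and 19.7%), with 0.10 between the members' median of -0.31 and the median of all genes of -0.21, and 0.013 the other way with no filter on low counts. The 3 higher were PSME1, PSMD8 and PSMD6. The lower count was 9 without replicate 1 and 8 without replicate 2.

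B-like cells had 2 higher and 18 lower (background 17.8% and 16.3%), with the members' median 0.33 below that of all genes (0.20 below it with no filter on low counts). The 2 higher were PSME1 and PSMF1, and every role other than the activators and inhibitor had at least 3 members lower. The split was 3 and 10 with library totals, 8 members were lower without replicate 1, and 2 were lower with cells thinned to 1000 UMIs. T and NK-like cells had 4 higher and 2 lower (background 26.8% and 21.8%), 3 of the 4 being lid subunits, PSMD6, PSMD13 and PSMD12. Their members' median lay 0.01 from that of all genes. The split turned with the scaling, to 2 and 6 with RLE and 12 and 1 with library totals. Over all 12942 genes it was 2821 and 3299 with RLE and 5128 and 2098 with library totals. Without replicate 1 or without replicate 2, 1 member was higher.

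Epithelial-like cells had 2 higher, PSMG3 and PSMD4, and 7 lower (background 26.1% and 17.9%), 3 of them activators or inhibitor. The split was 2 and 3 with RLE and 5 and 1 with library totals, and the lower count was 2, 4 and 4 without replicates 1, 2 and 3. Endothelial-like cells had 0 higher and 6 lower (background 15.5% and 12.9%), but 1 and 3 with RLE and 6 and 0 with library totals, and 3 and 2 lower without replicates 1 and 2. Mesothelial-like cells had 2 higher and 4 lower (background 16.5% and 9.64%), 3 and 1 with RLE and 1 and 4 with library totals, and 2, 1 and 0 lower without replicates 1, 2 and 3. Neither direction of the member calls in these 3 classes held across scalings. With library totals 4872, 3840 and 2028 of 12942 genes were higher in epithelial-like, endothelial-like and mesothelial-like cells, and 829, 317 and 1223 lower. Plasma-like cells had 10 higher and 2 lower (background 24.2% and 20.1%), the 2 being PSMG1 and PSMB5. The members' median lay 0.18 above that of all genes, and 0.097 above it without replicate 2. With library totals, which hardly move this distance, it was 0.17. With library totals all 30 were lower, as were 10002 of 12942 genes tested, and without replicate 1 the count of higher members was 6.

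The mesenchymal-like class held a large cluster with IGF2 and MMP3 among its leading genes, which made up 706, 313 and 540 of its cells and was compared with the other 361, 456 and 431 mesenchymal-like cells of the same animals. IGF2 is a fetal growth factor and MMP3 a secreted protease. The summed level of the members was 5676, 5548 and 4990 CPM in this cluster and 3727, 3787 and 3427 in the other cells, with no overlap. Of the 30 members, 20 were higher and 1 lower, against a background of 24% and 23.1% of 11229 genes, and the members' median lay 0.56 above that of all genes (0.28 at the finer clustering). All 6 beta subunits, 4 of 5 ATPases, 7 of 8 non-ATPases and 2 of 3 alpha subunits were higher, and none of the 4 assembly factors passed in either direction.

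PSMD2 stood at 184, 218 and 223 TMM-scaled CPM in the IGF2 and MMP3 cluster and 90.1, 93.0 and 109 in the other mesenchymal-like cells (1.09 ± 0.11, edgeR adjusted p = 4.6e-05). PSMA5 stood at 154, 125 and 98.6 against 79.1, 61.4 and 52.1 (0.97 ± 0.11, edgeR adjusted p = 9.4e-05). PSMB2, a structural beta subunit, stood at 421, 312 and 310 against 215, 152 and 177 (0.94 ± 0.11, edgeR adjusted p = 0.0001). In all 3 genes the lowest library of the cluster exceeded the highest of the other cells. Of the catalytic subunits PSMB7 differed by 0.70 ± 0.11 (edgeR adjusted p = 0.00081), PSMB6 by 0.54 ± 0.10 (edgeR adjusted p = 0.0023) and PSMB5 by 0.30 ± 0.10 (edgeR adjusted p = 0.039), the last lost under 7 alternatives and between 0.24 and 0.36 with any 1 animal left out. The activator PSME3 was 0.84 ± 0.13 higher (edgeR adjusted p = 0.00089), PSME1 was the 1 lower member (-0.46 ± 0.10, edgeR adjusted p = 0.0058), and PSME2 differed by 0.19 ± 0.10 (edgeR adjusted p = 0.16).

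Depth, cycle and stress genes and markers of other cell types moved with this comparison. The cluster's cells had medians of 19540, 15442 and 15300 UMIs against 5709, 5517 and 4914. Cell cycle genes summed to 581 to 921 CPM against 84.8 to 157, and dissociation stress genes to 1348 to 1768 against 3283 to 4145. The 4 mesothelial markers measured summed to 8.6 to 13.8 CPM in the cluster against 793 to 1892 in the other cells, basal markers to 555 to 799 against 34.2 to 95.1 and plasma markers to 2003 to 5418 against 6977.5 to 12707.5. With every cell thinned to 1000 UMIs, 13 members were still higher and 2 lower. At a finer clustering only 1 was higher. The cluster that met the rule then held 321, 3 and 22 cells, which left libraries of 2 animals. The other mesenchymal-like cells then numbered 764, 765 and 947 and summed to 4947 CPM on average. They included a cluster of 958 cells with IGF2, but not MMP3, among its leading genes. The 2 groups were thus not those of the main comparison. The part of the cycle and stress genes and of the other markers in the main result was not tested.

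Plasma-like cells were compared with B-like cells, from which antibody-secreting cells arise. On the TMM scale 19 members were higher and 1 lower (background 16% and 13.5%), the 1 being PSME1, and the members' median lay 0.46 above that of all genes. PSMG3 differed most, with the plasma-like values above all B-like values (1.85 ± 0.20, edgeR adjusted p = 1.6e-08). PSMB6 (1.23 ± 0.20, edgeR adjusted p = 1.5e-05) and PSMB7 (1.15 ± 0.15, edgeR adjusted p = 6.7e-07) were higher without overlap too, while PSMB5 differed by 0.07 ± 0.13 (edgeR adjusted p = 0.74). With library totals 0 were higher and 29 lower. The distance from the median of all genes, which the scaling hardly moves, was then 0.45. PSME1 differed by -0.64 ± 0.15 (edgeR adjusted p = 0.0018) and by -0.58, past the threshold no longer, without replicate 1. The higher count was 6 without replicate 1 and 11 without replicate 2, and the B-like library of replicate 3 held 66 cells.

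No T-like cluster met the rule for dividing cells, so 1 dividing macrophage-like cluster, with 120, 126 and 357 cells, was compared with the other macrophage-like cells, a comparison added after the clusters were seen. Its cell cycle genes summed to 2779 to 3091 CPM against 131 to 181, and its cells had 16585 to 20871 UMIs against 6358 to 10509. Neutrophil markers summed to 342 to 550 CPM in the dividing cluster against 48.3 to 123, and macrophage markers to 4021 to 6754 against 7972 to 9254, and their part was not tested. Without doublet removal a dividing cluster of 107, 90 and 330 cells scored best on neutrophil markers and stayed unnamed. The members summed to 4894, 4922 and 4598 CPM against 4460, 4409 and 4050. Of 30 members 6 were higher and 1 lower (background 12% and 10.9% of 11224 genes), led by PSMD2 at 164, 231 and 191 TMM-scaled CPM against 120, 148 and 149 (0.48 ± 0.09, edgeR adjusted p = 0.0085) and PSMC3, an ATPase (0.42 ± 0.09, edgeR adjusted p = 0.011). PSME1 was lower (-0.42 ± 0.10, edgeR adjusted p = 0.019). None of these 3 genes passed without replicate 2, at 0.42, 0.45 and -0.40. The higher count was 1 without replicate 1, 0 without replicate 2, 0 without the animal block and 0 with thinned cells.

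**Figure D4:**
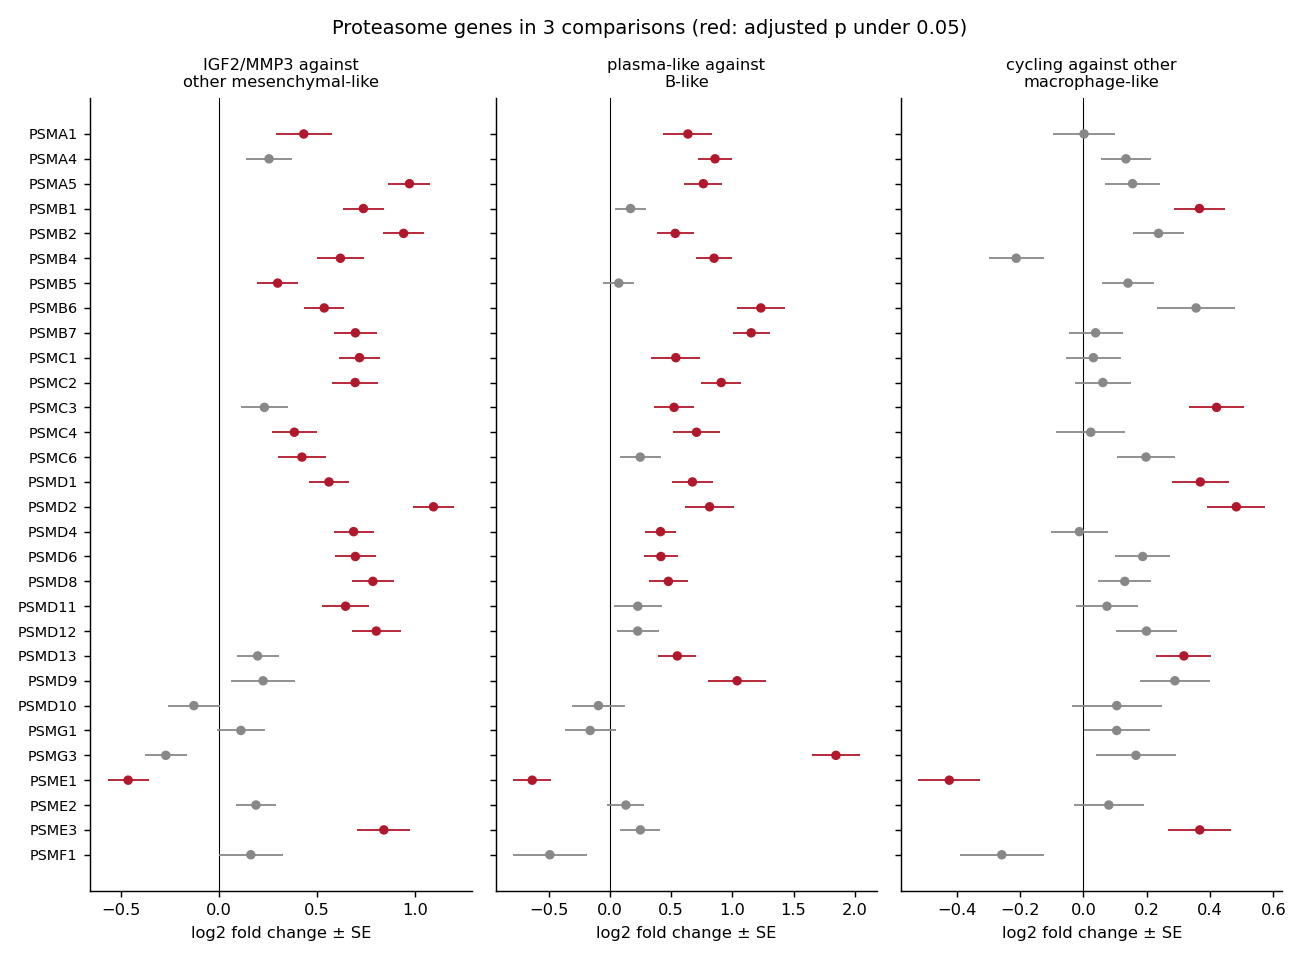
Log2 difference ± SE of each proteasome gene on the TMM scale in 3 comparisons: the IGF2 and MMP3 cluster against other mesenchymal-like cells, plasma-like against B-like cells, and dividing against other macrophage-like cells, red where the edgeR adjusted p was under 0.05. PSME1 is the 1 lower member in each, and with library totals the plasma-like against B-like calls turn to 29 lower.

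The immunoproteasome subunits, outside the member list, were read beside the catalytic subunits they replace. Their UMIs as a share of their own plus those of PSMB5, PSMB6 and PSMB7 were 73.7, 70.8 and 67.8% in dendritic-like cells (70.7% ± 2.95, SD, n = 3) and 70.3, 68.8 and 61.4% in B-like cells. Neutrophil-like cells varied more, at 73.1, 76.5 and 46.1%. The share was 60.6% ± 4.16 in T and NK-like, 54.5% ± 11.7 in monocyte and macrophage-like, 53.0% ± 12.2 in endothelial-like, 49.0% ± 3.11 in plasma-like, 43.4% ± 11.8 in mesenchymal-like and 41.8% ± 14.4 in epithelial-like cells (SD, n = 3 each). Mesothelial-like cells gave 63.4 and 35.5% in replicates 2 and 3. Bone matrix-like cells were lowest at 37.8, 22.7 and 24.9%, below every B-like and dendritic-like value. These shares count 3' ends of different genes, so they rank classes and do not give the protein ratio.

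**Figure D5:**
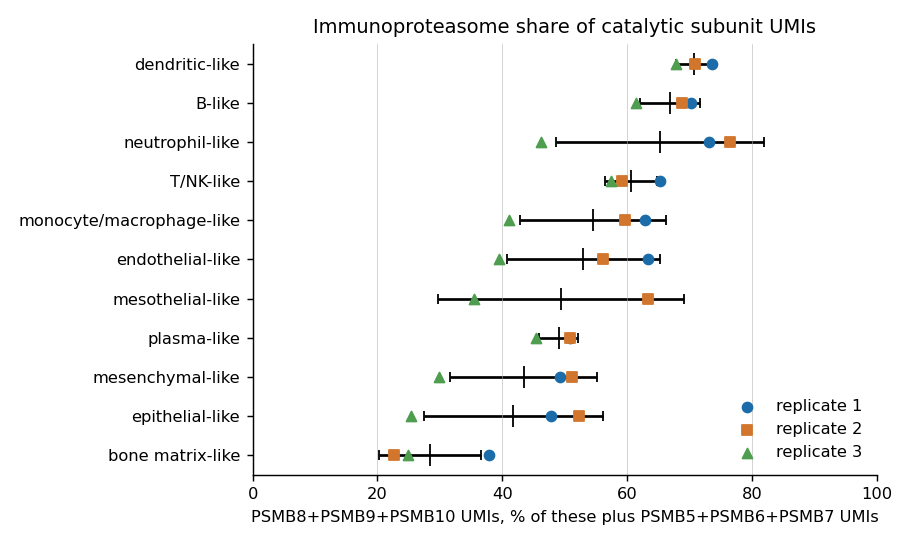
UMIs of PSMB8, PSMB9 and PSMB10 as a percent of these plus PSMB5, PSMB6 and PSMB7 in each cell class. Points are animals, ticks are means and bars are SD. Dendritic-like cells lie at 67.8 to 73.7% and bone matrix-like cells at 22.7 to 37.8%, and replicate 3 is the lowest point in most classes.

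In bone matrix-like cells of replicate 2 alone PSMB8, PSMB9 and PSMB10 differed by -2.66, -2.15 and -2.58, all past the threshold. In the fit with all libraries PSMB8 stood at 605, 492 and 426 TMM-scaled CPM in dendritic-like cells, above every other library, and at 71.4, 26.2 and 31.7 in bone matrix-like cells. The log2 difference was 2.07 ± 0.14 in dendritic-like (edgeR adjusted p = 8.2e-13), 1.15 ± 0.17 in B-like, 0.76 ± 0.16 in T and NK-like, -1.06 ± 0.18 in mesenchymal-like and -2.06 ± 0.23 in bone matrix-like cells (edgeR adjusted p from 3.1e-08 to 0.0002 for these 4). PSMB9 stood at 2498, 1845 and 1864 in dendritic-like cells (1.94 ± 0.17, edgeR adjusted p = 9e-11) and was lower in bone matrix-like (-1.25 ± 0.23) and epithelial-like cells (-0.99 ± 0.22). PSMB10 followed a different order. It did not pass in dendritic-like cells (0.29 ± 0.25, edgeR adjusted p = 0.4), was highest in endothelial-like cells at 128, 93.0 and 43.4 (1.47 ± 0.28, edgeR adjusted p = 0.00015) and in mesothelial-like cells at 175 and 35.3, and was lowest in bone matrix-like cells at 10.4, 8.03 and 3.02 (-2.54 ± 0.39, edgeR adjusted p = 6.5e-06). The mesothelial-like difference of 1.76 ± 0.31 was 1.02 without replicate 2 and no longer passed.

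Beyond these 3, the fixed list of pathway genes covered 11 of 13 proteins that ride on the particle, 3 of 6 genes of the NFE2L1 axis and 8 of 11 ubiquitin and shuttle genes, and 24 pathway genes in all were tested across classes. Dendritic-like cells had 7 higher and 0 lower (background 22.3% and 16.6%), among them NGLY1, the glycosidase that activates NFE2L1, at 114, 106 and 58.1 TMM-scaled CPM (1.83 ± 0.12, edgeR adjusted p = 5.8e-13). B-like cells, with 6 higher and 5 lower (background 17.8% and 16.3%), also had more NGLY1, at 95.5, 84.8 and 46.1 (1.58 ± 0.15, edgeR adjusted p = 2.6e-09), and the other 9 classes ranged from 13.4 to 37.6. Monocyte and macrophage-like cells had 8 higher and 2 lower (background 29.1% and 16.5%), led by ZFAND2A, a stress-inducible particle partner, at 107, 172 and 157 (2.30 ± 0.18, edgeR adjusted p = 1.5e-11). The dendritic-like library of replicate 3 overlapped them at 136. Dissociation stress genes summed to 2010 to 3116 CPM in the macrophage class, which did not stand out by this sum. They summed to 3377 to 8303 in neutrophil-like, 2234 to 3114 in B-like and 594 to 820 in plasma-like cells.

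Plasma-like cells had 8 pathway genes higher and 3 lower (background 24.2% and 20.1%). VCP, the unfoldase that extracts proteins from membranes for degradation, stood at 197, 190 and 172 TMM-scaled CPM (0.89 ± 0.10, edgeR adjusted p = 8.1e-09), against 65.5, 69.8 and 58.7 in B-like cells (1.49 ± 0.16 between the 2 classes, edgeR adjusted p = 1.4e-08). PAAF1, which binds the ATPases (1.28 ± 0.13, edgeR adjusted p = 2.7e-09), and AKIRIN2, which brings proteasomes into the nucleus (0.90 ± 0.12, edgeR adjusted p = 5.1e-07), were higher too. All 3 were lower in plasma-like cells with library totals. T and NK-like cells had 8 higher and 2 lower (background 26.8% and 21.8%), led by PITHD1, a protein that binds the particle, at 56.0, 44.7 and 54.6 (0.99 ± 0.10, edgeR adjusted p = 2e-09). In neutrophil-like cells 3 were higher and 6 lower (background 20.6% and 19.7%), with PAAF1 at 6.41, 5.98 and 10.2 (-1.31 ± 0.27, edgeR adjusted p = 0.00023).

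Among the stromal classes, mesenchymal-like cells had 3 pathway genes higher and 3 lower (background 30.6% and 15.8%) and bone matrix-like cells 2 and 7 (23.4% and 16.4%), or 2 and 6 in replicate 2 alone. NGLY1 was lower in both (-0.92 ± 0.15, edgeR adjusted p = 5.4e-06, and -0.94 ± 0.20, edgeR adjusted p = 0.00034), and at -1.005 in bone matrix-like cells of replicate 2 alone (edgeR adjusted p = 0.0026). NFE2L1 itself was sparse, at 5.64, 4.36 and 4.60 TMM-scaled CPM in mesenchymal-like cells (0.76 ± 0.30, edgeR adjusted p = 0.038, lost under 6 alternatives, among them without replicate 1 at 0.70 and without replicate 2 at 1.06). Endothelial-like cells had 2 higher and 7 lower (background 15.5% and 12.9%), epithelial-like cells 1 and 10 (26.1% and 17.9%) and mesothelial-like cells 2 and 3 (16.5% and 9.64%), with ZFAND2A lower in all 3 (-1.27 ± 0.41, -0.76 ± 0.28 and -1.59 ± 0.44). Each of these 3 calls was lost when either of 2 animals was left out, with values of -1.38 and -1.06 without replicates 1 and 2, -0.78 and -0.52 without replicates 1 and 3, and -1.51 and -1.63 without replicates 2 and 3. In the IGF2 and MMP3 cluster 9 were higher and 4 lower (background 24% and 23.1%). RAD23B, a shuttle that carries ubiquitin-tagged proteins to the particle, stood at 80.4, 63.4 and 84.1 there against 41.0, 43.0 and 38.6 (0.88 ± 0.14, edgeR adjusted p = 0.00082), and USP14, a deubiquitinase of the base, was 0.80 ± 0.11 higher (edgeR adjusted p = 0.00037).

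The remaining called pathway genes with the largest differences were as follows. UBA1, the enzyme that activates ubiquitin, was lower in B-like cells (-0.76 ± 0.17, edgeR adjusted p = 0.00092, but -0.77 and past the threshold no longer without replicate 2). VCP was 0.58 ± 0.10 higher in monocyte and macrophage-like cells (edgeR adjusted p = 9.8e-06), where the shuttle UBQLN2 was lower (-0.55 ± 0.18, edgeR adjusted p = 0.014, lost at -0.52 without replicate 1 and without replicate 3). FBXO7, a ubiquitin ligase subunit that binds the inhibitor PSMF1, was lower in endothelial-like cells at 14.0, 12.9 and 19.3 TMM-scaled CPM, below all other libraries (-1.22 ± 0.24, edgeR adjusted p = 0.00017, but -0.88 and past the threshold no longer without replicate 2). Plasma-like cells had 5 pathway genes higher and 3 lower than B-like cells (background 16% and 13.5%), with NGLY1 (-1.35 ± 0.21, edgeR adjusted p = 6.9e-06) and PSMB8 (-1.09 ± 0.24, edgeR adjusted p = 0.00074) among the lower. Dividing macrophages had 4 of 25 higher and 1 lower (background 12% and 10.9%), with PAAF1 0.63 ± 0.14 higher (edgeR adjusted p = 0.015) and ZFAND2A lower (-0.57 ± 0.12, edgeR adjusted p = 0.011), and PAAF1 was lost without replicate 1 (0.54) or replicate 2 (0.62).

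Some members followed the animal in every class. Over the 10 classes with 3 animals, PSME1 and PSME2 were lowest in replicate 3 in 10 of 10, on the TMM scale and in CPM of all UMIs alike, and PSME1 was highest in replicate 2 in 10 of 10. PSMB10 was lowest in replicate 3 in 10 of 10 on both scales, and PSMB8 in 8 and PSMB9 in 7 on the TMM scale. PSMA5 was lowest in replicate 3 in 9 of 10 on the TMM scale and in 10 of 10 in CPM of all UMIs. Other members were low in replicate 2. On the TMM scale 6 members (PSMA4, PSMB1, PSMB2, PSMB5, PSMD4 and PSMD12) were lowest there in all 10 classes and 13 in 8 or more, against 2 and 5 members for replicate 3. In CPM of all UMIs these counts were 0 and 2 for replicate 2 and 3 and 5 for replicate 3, so the replicate 2 pattern depended on the scaling. The classes of an animal share its library, and the animals differed in depth, with 4965, 5172 and 8074 median UMIs per kept cell, so these counts are a description and no test of the animals.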

How the data were processed

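Per the labels, each of the 3 samples is the lung tumour tissue of 1 animal, and the deposited values are unnormalized UMI counts for every gene in every barcode. Per the file headers the authors made these counts with Cell Ranger 7.1.0, while version 8.0.0 stands in the submitters' processing notes. No build or annotation is given in the sources used here, and 36.8 to 37.8% of UMIs fell on features without a symbol. Cells were kept at 1000 or more UMIs, 500 or more genes and 20% or less mitochondrial UMIs. Scrublet's own threshold called 1 doublet, so the 445 of 25044 cells with a score of 0.2 or more were removed instead.

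Clusters were made with scanpy 1.11.5 (2000 variable genes without the proteasome and pathway lists, 30 components, 20 neighbours, Leiden resolution 1, leidenalg 0.10.2) and named by at least 3 markers. Counts were summed per animal and class and fitted with edgeR 4.0.16 (quasi-likelihood test after TMM scaling and filterByExpr, with the animal as a block and Benjamini-Hochberg adjustment over all genes tested), in R 4.3.3, with DESeq2 1.42.0 as an alternative. Same-numbered libraries come from the same animal, so the number pairs them. The standard error is the log2 difference divided by the root of F. The scripts were tested on simulated counts for the dendritic-like, the IGF2 and MMP3 and the dividing macrophage comparisons. Of true log2 differences of 0.5, 16, 11 and 31% were recovered, and of differences of 1, 60, 65 and 77%. Among unchanged genes 3 of 11699, 6 of 10817 and 23 of 10883 were called. The simulated counts held no animal effect and only 100 genes changed at each size, while 93.1% of genes differed between classes in the data. The adjusted threshold was therefore harder to reach in the simulation, and these shares do not give the recovery in the data. How often a difference near 0.5 would pass in the data was not tested, so one that did not pass is weak evidence of no difference.

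The members and lists were chosen with earlier results of these data known. The catalytic subunits, the activators and the inhibitor were always described, with, for each comparison, the 3 called members of like sign in all animals and the 3 called pathway genes with the largest differences, and PSMB8, PSMB9 and PSMB10. Other genes named were chosen after their values were seen. So were the doublet score, a looser rule for rival cell names that let the IGF2 and MMP3 cluster be named, the dividing macrophage comparison and the alternatives without plasma-like cells or without the bone matrix-like libraries of replicates 1 and 3. Clusters whose markers conflicted were left unnamed (663, 603 and 1442 cells) and enter no comparison. No sequence was read, and promoter motifs were not analysed here.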

Additional observations from a re-analysis of the deposited data

How the results depend on the processing

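Each count below is of members higher or lower in a class against the others, or in one of the 3 narrower comparisons. Library totals gave 12 higher in T and NK-like, 25 in bone matrix-like, 0 in plasma-like and 0 in plasma-like against B-like cells, and 10 lower in B-like, 0 in endothelial-like and 1 in epithelial-like cells. They turned 21 named differences in plasma-like, endothelial-like and epithelial-like cells: against the other classes AKIRIN2 -0.88, PAAF1 -0.47, PSMB6 -1.12, PSMB7 -0.97, PSME2 -1.35, PSME3 -1.59, PSMF1 -1.53, PSMG3 -0.93 and VCP -0.84 in plasma-like cells, against B-like cells PAAF1 -0.34, PSMB10 -1.47, PSMB5 -1.66, PSMB6 -0.49, PSMB7 -0.58, PSME2 -1.62, PSME3 -1.49 and VCP -0.23, in endothelial-like cells PSMB5 0.52, PSMC2 0.046 and PSME1 0.17, and in epithelial-like cells PSMB7 0.0003. With plasma-like cells also left out, 2 were higher in monocyte and macrophage-like cells, 0, 2, 8 and 25 lower in endothelial-like, epithelial-like, mesothelial-like and neutrophil-like cells, and PSMB5 was 0.31 in endothelial-like cells. With the bone matrix-like libraries of replicates 1 and 3 left out, 6 were higher in that class. RLE size factors gave 2 higher in T and NK-like and 4 in monocyte and macrophage-like cells, and 3, 3 and 1 lower in endothelial-like, epithelial-like and mesothelial-like cells. DESeq2 gave 3 higher in dividing macrophages and 3 and 2 lower in endothelial-like and mesothelial-like cells. No filter gave 2 higher in T and NK-like and 1 lower in mesothelial-like cells, and a minimum of 2000 UMIs 4 and 2 lower in epithelial-like and mesothelial-like cells.

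Without the replicate block 22 of 30 members differed between classes, and the counts of higher members were 2 in T and NK-like, 8 in bone matrix-like, 4 in dendritic-like, 13 in mesenchymal-like, 6 in monocyte and macrophage-like cells, 11 in plasma-like against B-like cells and 0 in dividing macrophages, with 2, 1 and 1 lower in endothelial-like, epithelial-like and mesothelial-like cells. With cells thinned to 1000 UMIs, 13 were higher in the IGF2 and MMP3 cluster, 2 in T and NK-like, 0 in bone matrix-like, 12 in mesenchymal-like, 7 in monocyte and macrophage-like, 6 in plasma-like cells, 4 in plasma-like against B-like cells and 0 in dividing macrophages, and 2, 1, 3, 0 and 5 were lower in B-like, endothelial-like, epithelial-like, mesothelial-like and neutrophil-like cells. PSMB5 turned to -0.10 in mesothelial-like and PSMB6 to -0.53 in bone matrix-like cells. Summed levels then were 3693 in T and NK-like, 3653 in epithelial-like, 4431 in mesenchymal-like, 4133 in monocyte and macrophage-like, 3084 in neutrophil-like, 4428 in dividing and 4079 in other macrophage-like cells. Thinning also leaves fewer UMIs per library, and it gives every cell the same weight, where the unthinned sums weight each cell by its depth. At Leiden resolution 2, 1 member was higher in the IGF2 and MMP3 cluster, where PSME3 turned to -0.038 and UBQLN2 to 0.095, and summed levels were 3108 in neutrophil-like and 4947 in other mesenchymal-like cells. Otherwise the cause was not tested.

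Leaving out 1 animal gave 23 to 27 members differing between classes, 16 to 18 higher in the IGF2 and MMP3 cluster, 1 to 3 in T and NK-like, 8 to 12 in bone matrix-like, 4 to 8 in dendritic-like, 3 to 16 in mesenchymal-like, 6 to 10 in monocyte and macrophage-like, 6 to 8 in plasma-like, 6 to 14 in plasma-like against B-like cells and 0 to 8 in dividing macrophages. Lower counts ran from 8 to 14 in B-like, 2 to 5 in endothelial-like, 2 to 4 in epithelial-like, 0 to 2 in mesothelial-like and 8 to 13 in neutrophil-like cells. Over 197 named gene results and 2772 alternative values, 2424 kept their side of the threshold, and those called in the main fit kept direction too. Another 261 kept direction and no longer passed, 61 passed only then and 26 changed sign. Values that passed in neither fit are among the 2424 whatever their sign. Their changes of sign are not counted here or among the differences said to turn above. Without doublet removal, bone matrix-like cells had 1 library and dividing macrophages stayed unnamed, so those 2 gave no value. The planned comparison of dividing T-like cells was not run, since no cluster met its rule. Low UMI counts per cell limit what B-like and neutrophil-like cells can show. The tests also rest on the size of the summed libraries. In replicate 3 these held only 215301 UMIs in B-like and 316452 in endothelial-like cells. The 3 animals, with 2 for mesothelial-like cells, limit every test.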

Other observations

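Cells outside the comparisons held proteasome genes at levels within the range of the named classes. The osteoclast-like cluster, almost all from replicate 2, summed to 4421 CPM there, with an immunoproteasome share of 31.7%. Of the unnamed clusters, the large one with macrophage markers and neutrophil leading genes summed to 4500, 4623 and 4009 CPM in replicates 1, 2 and 3. The unnamed cluster between dendritic and plasma markers summed to 4978, 4913 and 3934, the small one between T and neutrophil markers to 3180, 3253 and 2942, and the one between basal and mesenchymal markers, found in replicate 2, to 5207.

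Within the T and NK-like class the cluster with 2238.5 median UMIs per cell summed to 3469, 3348 and 3246 and the one with 10425 median UMIs to 5284, 5354 and 5039, so summed level and depth moved together there.

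Over the 29 summed libraries other than plasma-like ones, the correlation (Pearson r of log2 CPM plus 1) of each member with the sum of the others was highest for PSMA1 at 0.81 and PSMB6 at 0.77, 0.30 for PSMD10 and -0.25 for PSME1. Over the same libraries the genes whose level was most like the members' sum were PTMS (0.86), INSIG2 (0.85), COA3 (0.84), SEPTIN8 (0.83) and RARS2 (0.82). With plasma-like cells included, over 32 libraries, they were POP7 (0.94), ADH5 (0.93), MYEOV2 (0.93), VDAC2 (0.93) and NBN (0.92). The libraries share animals and differ in depth, so these values are a description with no test.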
